A study of Mus musculus with 4 samples.

Results

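The activin, follistatin and myostatin axis was followed through 9 genes, chosen by name, among the 27040 genes counted in every library of a single-cell study of the mouse Achilles tendon. They are the ligand genes Inhba, Inhbb and Mstn, the receptor genes Acvr2a, Acvr2b and Acvr1b, the antagonist genes Fst and Fstl3, and the related gene Fstl1. The genes were picked with their values in these libraries known, so all values below are a description. All 9 were found in all 4 libraries by gene identifier.

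Activins are dimers of the chains encoded by Inhba and Inhbb, and myostatin is the product of Mstn, made mainly by skeletal muscle, whose growth it limits. These ligands bind a type II receptor (Acvr2a or Acvr2b), which recruits and phosphorylates a type I receptor such as Acvr1b. The type I receptor then phosphorylates the transcription factors Smad2 and Smad3. Follistatin (Fst) and follistatin-like 3 (Fstl3) are secreted proteins that wrap activins and myostatin and keep them from their receptors. Fstl1, a secreted glycoprotein of connective tissue, shares a follistatin-type domain with them.

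There were 4 groups with 1 library each, and per the study's design text each library pooled cells of 5 Achilles tendons. The Vegfc CRE library was made 7 days after the injury labelled B/T, an abbreviation the labels do not spell out. The Prox1 eGFP libraries were made on day 0 with no treatment and on days 7 and 21 of B/T. Prox1 is the transcription factor that sets lymphatic endothelial identity, eGFP is a fluorescent reporter, Vegfc encodes a growth factor that acts on lymphatic vessels and CRE is a recombinase. Which cells each transgene marks, and the age of the animals, are not given in the sources used here. The protocol describes a sort for cells that express Prox1, whereas another label calls the same cells unsorted. A unique molecular identifier (UMI, one counted transcript molecule) of Prox1 was found in 1.15% of the Vegfc CRE cells, and in 8.84%, 96.8% and 86.7% of the Prox1 eGFP cells of days 0, 7 and 21.

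The Vegfc CRE library held 92568978 UMIs, and the Prox1 eGFP libraries held 6761289, 59312181 and 59894792 on days 0, 7 and 21. After filtering, 6966 Vegfc CRE cells and 690, 4871 and 6296 Prox1 eGFP cells remained, and the median cell held 8473 UMIs in Vegfc CRE and 6978, 8457 and 7458.5 in Prox1 eGFP. Cells were clustered and clusters were named from marker genes, written as "-like". Any pair of libraries shared 1 to 10 cell barcodes. The day 0 library, labelled as tendon, held 0 tenocyte-like, 2 fibroblast-like and 3 lymphatic endothelial-like cells, and 400 of its 690 cells were T/NK-like. Lymphatic endothelial-like cells numbered 1911 on day 21 and 991 on day 7 of Prox1 eGFP, and 8 in Vegfc CRE, so lymphatic endothelium is described from those 2 time points alone. Levels are given as CPM (counts per 1000000), the UMIs of a gene summed over the cells of a class divided by all UMIs of those cells. Brackets hold 95% intervals. Over all cells of a library Fst stood at 38.6 CPM in Vegfc CRE and at 4.79, 18.8 and 36.2 CPM on days 0, 7 and 21 of Prox1 eGFP, values that mix the level in each class with the makeup of the library. With 1 library per group no difference could be set against a spread between animals: the intervals cover counting error only, and they are too narrow where 1 cell holds many UMIs of a gene. A gene was called different at 2-fold or more with at least 10 UMIs over both libraries. Each count of called genes, where first given, stands beside the share of all genes called in the same way. Counts recomputed under other settings have no such share of their own. The Vegfc CRE library differs from each Prox1 eGFP library in line, may differ in the sort, and differs from days 0 and 21 also in time, so these cannot be told apart. The Prox1 eGFP day 7 file lists 27998 genes and the others 32285, so every comparison with day 7 also differs in gene list. The part of the gene list in those ratios was not tested.

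**Figure D1:**
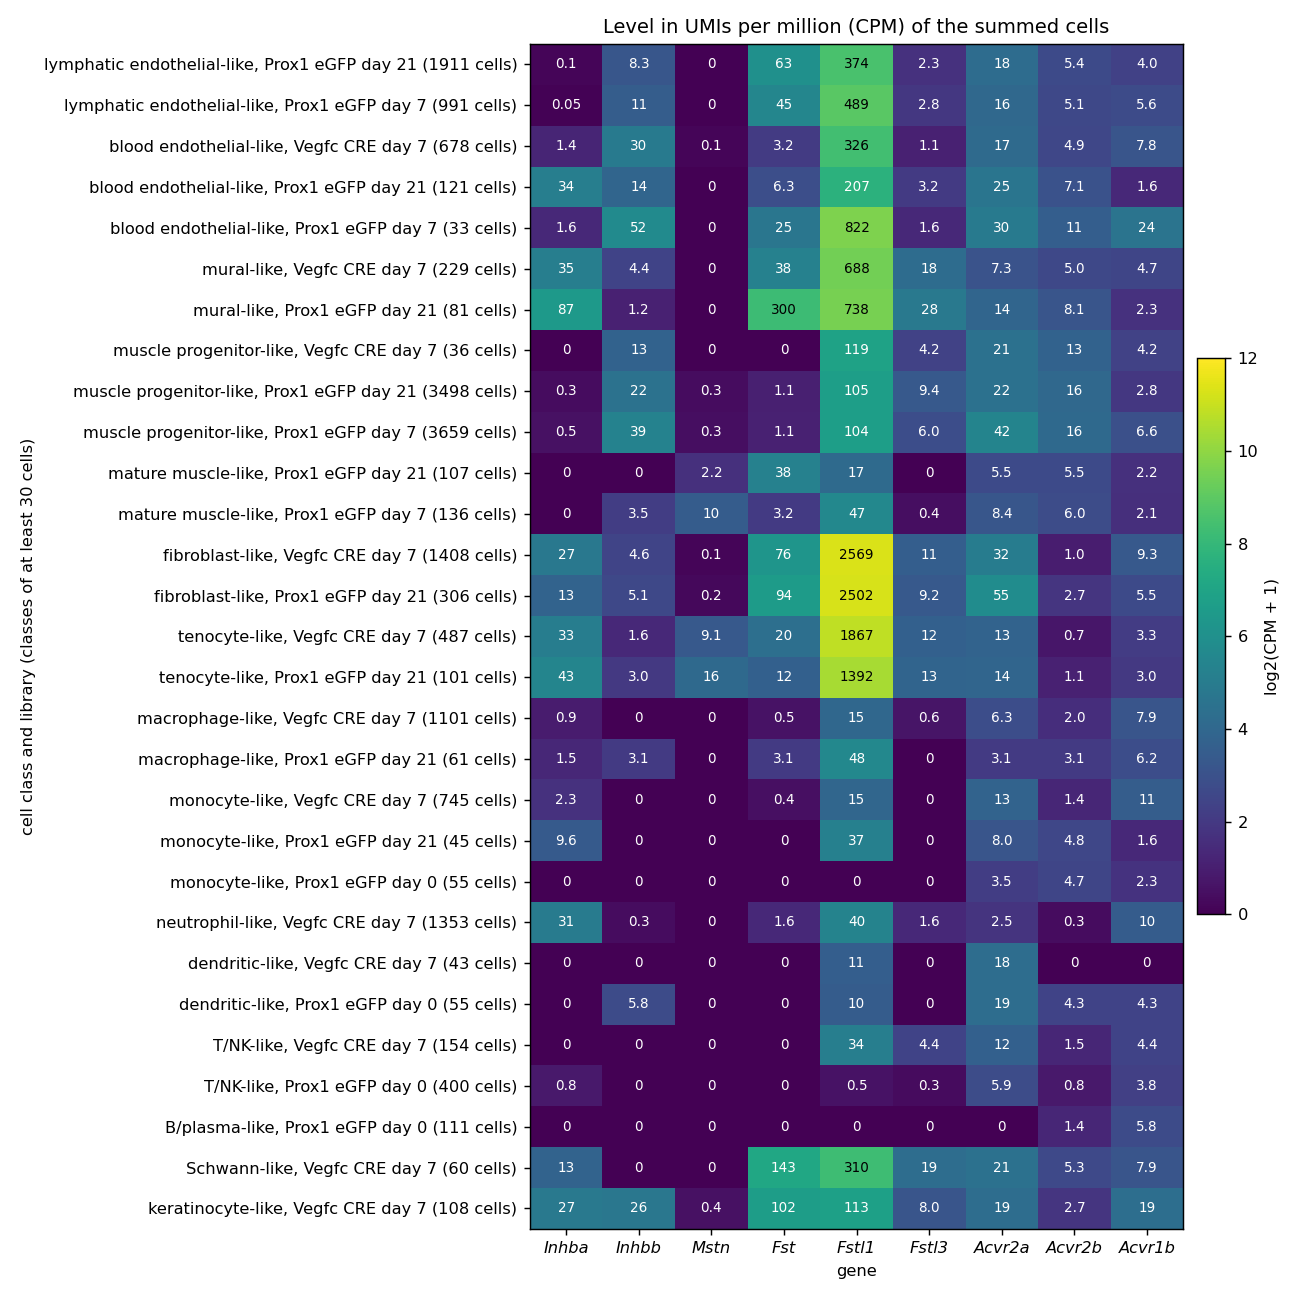
Level of each of the 9 genes (columns) in each cell class of at least 30 cells (rows, by library). Numbers are CPM and colours are log2(CPM + 1). Inhba sits in mural-, tenocyte-, fibroblast-, neutrophil- and keratinocyte-like cells, Inhbb in muscle progenitor-, blood endothelial- and keratinocyte-like cells, Fst in mural-, fibroblast-, Schwann-, keratinocyte- and lymphatic endothelial-like cells, and Fstl1 in every connective tissue class.

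Among the ligands, Inhba, which encodes the chain of activin A, was read mainly in stromal cells and was nearly missing from lymphatic endothelium. The gene lies at chr13:16011851-16031621 on the plus strand of mm10. In Vegfc CRE the levels were 34.5 CPM (28.6 to 41.3) in mural-like cells, the smooth muscle cells and pericytes of vessel walls, 33.4 CPM (30.2 to 36.9) in tenocyte-like cells, the cells of tendon fibres, and 27.0 CPM (25.3 to 28.7) in fibroblast-like cells. Neutrophil-like cells of the same library stood at 30.7 CPM (24.9 to 37.4), from 97 UMIs in 41 of 1353 cells. Keratinocyte-like cells stood at 27.5 CPM (21.1 to 35.2), but 36 of their 62 UMIs were in 1 cell. Ranked by level, neighbours among these classes overlapped in their intervals, but the tenocyte- and fibroblast-like intervals did not overlap. On day 21 of Prox1 eGFP the order was mural-like cells with 86.9 CPM (68.3 to 109), tenocyte-like cells with 43.3 CPM (35.8 to 52.0), blood endothelial-like cells with 34.1 CPM (24.6 to 45.9) and fibroblast-like cells with 12.9 CPM (10.1 to 16.3). Among these 4 intervals, those of the tenocyte- and blood endothelial-like cells alone overlapped. In the blood endothelial-like cells, 20 and 17 of the 43 UMIs were in 2 cells. Lymphatic endothelial-like cells held 2 Inhba UMIs in 1911 cells on day 21 and 1 in 991 cells on day 7. Muscle progenitor-like cells were also low, with 0.311 CPM on day 21 and 0.472 CPM on day 7.

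In Vegfc CRE, Inhba was 29.7-fold higher (15.6 to 65.2) in fibroblast-like than in macrophage-like cells, which stood at 0.908 CPM from 9 UMIs in 1101 cells. That ratio, 4.89 on the log2 scale, rests on how the myeloid and fibroblast clusters were drawn. A cluster of 461 Vegfc CRE cells led by Mmp12, Arg1 and Gpnmb carried 8 of 9 macrophage markers and 4 of 6 osteoclast markers. It stayed unnamed, since osteoclast markers stood among its leading genes, and so is left out of the macrophage-like cells. It held 58 Inhba UMIs or 9.92 CPM (7.53 to 12.8), above the level of the named macrophage-like cells. With clusters drawn at a resolution of 0.5 the log2 ratio was 0.37.

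Inhbb, which encodes the chain of activin B, was read in a partly different set of classes. It lies at chr1:119415465-119422248 on the minus strand. Blood endothelial-like cells stood at 29.6 CPM (26.0 to 33.6) in Vegfc CRE, at 14.3 CPM (8.45 to 22.5) on day 21 and at 52.4 CPM (36.0 to 73.5) on day 7 of Prox1 eGFP. Keratinocyte-like cells of Vegfc CRE overlapped with them at 25.7 CPM (19.5 to 33.2), from 58 UMIs in 31 of 108 cells. That class and the blood endothelial-like cells of day 21 held UMIs of both chain genes. Most of their Inhba UMIs were in very few cells, as given above. Fibroblast-like cells held both as well, with Inhbb at 4.56 CPM (3.88 to 5.33) in Vegfc CRE and 5.14 CPM (3.44 to 7.38) on day 21. Tenocyte- and mural-like cells of Vegfc CRE also did, with Inhbb at 1.59 CPM and 4.39 CPM. Muscle progenitor-like cells, the stem and precursor cells of skeletal muscle, stood at 21.7 CPM (19.9 to 23.6) on day 21 and 39.3 CPM (37.1 to 41.5) on day 7. On each of these days of Prox1 eGFP the intervals of the muscle progenitor- and blood endothelial-like cells overlapped. Lymphatic endothelial-like cells were lower than muscle progenitor-like cells, with 8.34 CPM (7.08 to 9.76) on day 21 and 10.6 CPM (9.29 to 12.1) on day 7. Their UMIs were held by few cells: 155 UMIs in 62 of 1911 cells on day 21, the highest cell with 23, and 235 UMIs in 85 of 991 cells on day 7, the highest with 15. Macrophage-like cells of Vegfc CRE held 0 Inhbb UMIs in 1101 cells, which allows a share of cells with a UMI, not of cells that express the gene, of up to 0.272%.

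Mstn, at chr1:53061640-53068079 on the plus strand, was the lowest of the ligands by UMIs. Mature muscle-like cells held 2 UMIs in 2 of 107 cells on day 21 and 29 UMIs in 14 of 136 cells on day 7. Tenocyte-like cells stood at 9.13 CPM (7.495 to 11.0) in Vegfc CRE and 16.1 CPM (11.6 to 21.6) on day 21, with 109 UMIs in 16 of 487 cells of Vegfc CRE and 43 UMIs in 7 of 101 cells on day 21. A single cell held 75 of the 109 and a single cell held 29 of the 43. Muscle progenitor-like cells held 8 UMIs on day 21 and 11 on day 7, and fibroblast-like cells 4 in Vegfc CRE and 1 on day 21. In lymphatic endothelial-like cells Mstn had 0 UMIs in 1911 cells on day 21 and in 991 cells on day 7, which allows a share of cells with a UMI of up to 0.157% and 0.303%.

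The receptor genes were read in more classes than the ligands. Acvr2a, a type II receptor gene at chr2:48814109-48903269 on the plus strand, was highest in fibroblast-like cells, with 32.2 CPM (30.3 to 34.1) in Vegfc CRE and 55.5 CPM (49.5 to 62.0) on day 21. In Vegfc CRE its interval was overlapped by those of Schwann-, muscle progenitor- and dendritic-like cells, each from at most 8 UMIs. On day 21 it stood at 24.5 CPM (16.7 to 34.8) in blood endothelial-, 21.5 CPM (19.8 to 23.4) in muscle progenitor- and 18.1 CPM (16.2 to 20.1) in lymphatic endothelial-like cells, below the fibroblast-like interval. On day 7 muscle progenitor-like cells led with 42.2 CPM (39.9 to 44.5), overlapping with the 30.2 CPM (18.2 to 47.1) of blood endothelial-like cells and above the 15.6 CPM (13.97 to 17.3) of lymphatic endothelial-like cells. Among the day 0 cells, 23 of the 63 Acvr2a UMIs were in T/NK-like cells, at 5.89 CPM (3.73 to 8.84). Dendritic-like cells of day 0 stood higher, at 18.7 CPM (9.98 to 32.1) from 13 UMIs in 55 cells.

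Acvr2b, the other type II receptor gene, lies at chr9:119402118-119434995 on the plus strand. Muscle progenitor-like cells stood highest, with 15.6 CPM (14.1 to 17.2) on day 21 and 15.9 CPM (14.6 to 17.4) on day 7, against 5.43 CPM (4.43 to 6.60) and 5.10 CPM (4.203 to 6.13) in lymphatic endothelial-like cells of the same days. Small classes overlapped with them: on day 21 the interval of mural-like cells, with 7 UMIs, reached up to 16.7 CPM, and on day 7 that of blood endothelial-like cells, with 7 UMIs, up to 22.9 CPM. Fibroblast-like cells stood at 2.66 CPM (1.49 to 4.38) on day 21, so the order of fibroblast- and muscle progenitor-like cells was opposite for the 2 type II genes.

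Acvr1b, the type I receptor gene at chr15:101174067-101213684 on the plus strand, gave few UMIs anywhere. In Vegfc CRE it was highest in keratinocyte-like cells with 19.1 CPM (13.8 to 25.7), followed by monocyte-like cells with 10.7 CPM (7.96 to 13.98), neutrophil-like cells with 10.1 CPM (6.93 to 14.3) and fibroblast-like cells with 9.32 CPM (8.34 to 10.39). Neighbours in this order overlapped, and the intervals of Schwann- and muscle progenitor-like cells, with 3 UMIs and 1 UMI, reached 23.2 CPM and 23.6 CPM. Lymphatic endothelial-like cells stood at 4.04 CPM (3.17 to 5.06) on day 21 and 5.60 CPM (4.65 to 6.67) on day 7. UMIs of a type II gene and of Acvr1b in one cell were found in 19 of 1911 lymphatic endothelial-like cells (0.994%) on day 21 and 54 of 991 (5.45%) on day 7. Their median UMIs per cell were 8719 and 18889. After every cell was thinned to 2000 UMIs the count was 0 on both days, so co-detection could not be compared at this depth. A type II UMI was found in 4.43% of the thinned cells on day 21 and 5.47% on day 7, against 19.6% and 34.4% before thinning.

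The antagonist Fst was read in stroma, nerve, epidermis and lymphatic endothelium. The gene lies at chr13:114452290-114458951 on the minus strand. In Vegfc CRE, Schwann-like cells of peripheral nerve stood at 142.9 CPM (107 to 186) from 54 UMIs in 13 of 60 cells, keratinocyte-like cells at 102.0 CPM (89.2 to 116), fibroblast-like cells at 75.7 CPM (72.8 to 78.6), mural-like cells at 38.02 CPM (31.8 to 45.2) and tenocyte-like cells at 20.2 CPM (17.7 to 22.9). The Schwann- and keratinocyte-like intervals overlapped, and each later class lay below the one before it. On day 21 the order was mural-like cells with 299.9 CPM (265 to 339), fibroblast-like cells with 93.9 CPM (86.1 to 102.3), lymphatic endothelial-like cells with 63.1 CPM (59.5 to 66.8) and mature muscle-like cells with 37.7 CPM (26.1 to 52.7), with no overlap between neighbours. On day 7 of Prox1 eGFP, where mural- and fibroblast-like cells were under 30, lymphatic endothelial-like cells led with 45.0 CPM (42.3 to 47.9). Blood endothelial-like cells followed with 25.4 CPM (14.5 to 41.2) from 33 cells.

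Immune and muscle progenitor-like cells were near 0 for Fst. Macrophage-like cells of Vegfc CRE held 5 UMIs in 1101 cells. Muscle progenitor-like cells stood at 1.05 CPM (0.692 to 1.53) on day 21 and 1.13 CPM (0.794 to 1.57) on day 7. In the day 0 library 32 Fst UMIs were found in all 690 cells, 0 of them in T/NK-, B/plasma-, monocyte- or dendritic-like cells.

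Fstl3, at chr10:79777272-79782630 on the plus strand, was read at low levels in stromal and muscle progenitor-like cells. Mural-like cells stood at 18.1 CPM (13.9 to 23.2) in Vegfc CRE and 27.8 CPM (17.8 to 41.4) on day 21. Tenocyte-like cells stood at 11.9 CPM in Vegfc CRE and 13.4 CPM on day 21, and fibroblast-like cells at 10.9 CPM and 9.21 CPM. Lymphatic endothelial-like cells were lower, at 2.26 CPM (1.63 to 3.05) on day 21 and 2.84 CPM (2.18 to 3.64) on day 7. In muscle progenitor-like cells Fstl3 stood at 9.37 CPM on day 21 and 6.05 CPM on day 7, so Fst and Fstl3 had opposite orders in those 2 classes.

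Fstl1, at chr16:37776873-37836514 on the plus strand, was the member with the most UMIs. Fibroblast-like cells held 2569 CPM in Vegfc CRE and 2502 CPM on day 21, with a UMI in 99.1% and 98.0% of cells. Tenocyte-like cells held 1867 CPM in Vegfc CRE and 1392 CPM on day 21, and mural-like cells 688 CPM and 738 CPM. Lymphatic endothelial-like cells held 374 CPM (365 to 383) on day 21 and 489 CPM (480 to 498) on day 7. Macrophage-like cells of Vegfc CRE, taken as the background, held 14.8 CPM with a UMI in 11.4% of cells at a median of 8607 UMIs per cell, against a median of 23127.5 in the fibroblast-like cells. Monocyte-like cells, at 14.8 CPM (11.6 to 18.6), overlapped with that level. Neutrophil-like cells, at a median of 2048 UMIs per cell, stood above it with 40.2 CPM (33.5 to 47.8), at most 3 UMIs in a cell.

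In the Prox1 eGFP libraries of days 21 and 7, most of whose cells were muscle progenitor- or lymphatic endothelial-like, Fst was 60.1-fold higher (41.1 to 91.6) in lymphatic endothelial- than in muscle progenitor-like cells on day 21 and 39.7-fold higher (28.5 to 57.1) on day 7. Mural- and fibroblast-like cells of day 21, given above, stood higher still. The lymphatic class was named from 8 marker genes, so their presence is no separate check of its identity. All 8, including Prox1, Flt4 and Lyve1, had UMIs on both days. Their summed level was 21557 CPM on day 21 and 13392 CPM on day 7. The fibroblast markers summed to 15.9 CPM and 10.9 CPM in these cells and the mural markers to 19.3 CPM and 18.9 CPM. Dcn, which is not among those markers, stood at 131 CPM on day 21 and 172 CPM on day 7 in the same cells. The muscle progenitor marker Pax7 stood at 7.64 CPM and 13.0 CPM, and the mature muscle marker Acta1 at 15.6 CPM and 34.1 CPM.

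Few lymphatic cells held the Fst message. A Fst UMI was found in 226 of 1911 cells (11.8%) on day 21 and in 208 of 991 (21.0%) on day 7. After thinning to 2000 UMIs per cell the shares were 4.75% (3.83 to 5.81) on day 21 and 6.17% (4.76 to 7.86) on day 7. The share runs against the CPM, so no order is read from it. In muscle progenitor-like cells of the same libraries the share with a Fst UMI was 0.572% on day 21, at a median of 6676.5 UMIs per cell, and 0.547% on day 7, at a median of 7745. The highest cells held 80, 67 and 52 UMIs on day 21 and 58, 42 and 41 on day 7. At least 5 UMIs were found in 51 cells on day 21 and 58 cells on day 7. On day 21, 17 cells together held 50% of the Fst UMIs of the class, and on day 7, 24 cells did.

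**Figure D2:**
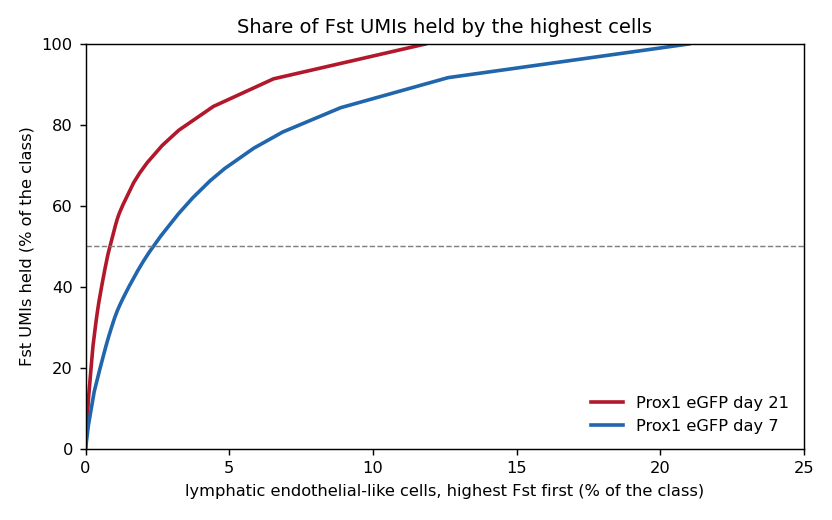
Cumulative percent of the Fst UMIs of lymphatic endothelial-like cells (vertical axis) against the percent of cells, ranked from the highest (horizontal axis), for days 21 and 7 of Prox1 eGFP. The curves end at the 11.8% and 21.0% of cells with a Fst UMI, and the 10 highest cells alone held 38.6% of the UMIs on day 21 and 32.3% on day 7.

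The lymphatic cells fell into 3 clusters, and Fst was spread unevenly over them. Since the clusters were drawn from the same counts, these levels are a description. The first was led by Clca3a1, Klrb1f and Foxc2 (Foxc2 is a transcription factor needed for lymphatic valves). The second was led by Ccl21a, Lyve1 and Reln (Lyve1 is a hyaluronan receptor typical of lymphatic capillaries, and Ccl21a draws in dendritic cells). The third was led by genes of cell division such as Cenpf and Birc5. In the Clca3a1 cluster Fst stood at 72.5 CPM (67.2 to 78.2) from 681 UMIs in 955 cells on day 21 and at 83.4 CPM (77.9 to 89.3) from 834 UMIs in 508 cells on day 7. In the Lyve1 Reln cluster it stood at 23.9 CPM (20.7 to 27.5) from 196 UMIs in 911 cells on day 21 and at 13.4 CPM (10.8 to 16.3) from 95 UMIs in 382 cells on day 7. The Clca3a1 cluster was thus 3.03-fold higher (2.58 to 3.57) on day 21 and 6.24-fold higher (5.04 to 7.80) on day 7.

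The dividing cluster differed most between the days. It held 296.7 CPM (264 to 332) on day 21 and 13.6 CPM (10.6 to 17.3) on day 7, a ratio of 21.7 (16.7 to 28.7). The day 21 value came from 296 UMIs in 12 of 45 cells, 8 of which held at least 5, and the day 7 value from 69 UMIs in 20 of 101 cells. With 45 cells this cluster made up 2.35% of the lymphatic cells of day 21 and held 25.2% of their Fst UMIs, whereas on day 7 it made up 10.2% of the cells and held 6.91%. Cells of this cluster had median UMIs of 20326 on day 21 and 49391 on day 7, above those of the whole class. The cluster held UMIs of all 8 lymphatic markers, summing to 11347 CPM and 7342 CPM. By the naming limits of 2-fold and 20% of cells it carried 6 of the 8. Whether some of its barcodes hold 2 cells was not tested beyond the doublet calls. Removing the cells with the highest doublet scores left the log2 ratio at 4.25, against 4.44 with them.

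**Figure D3:**
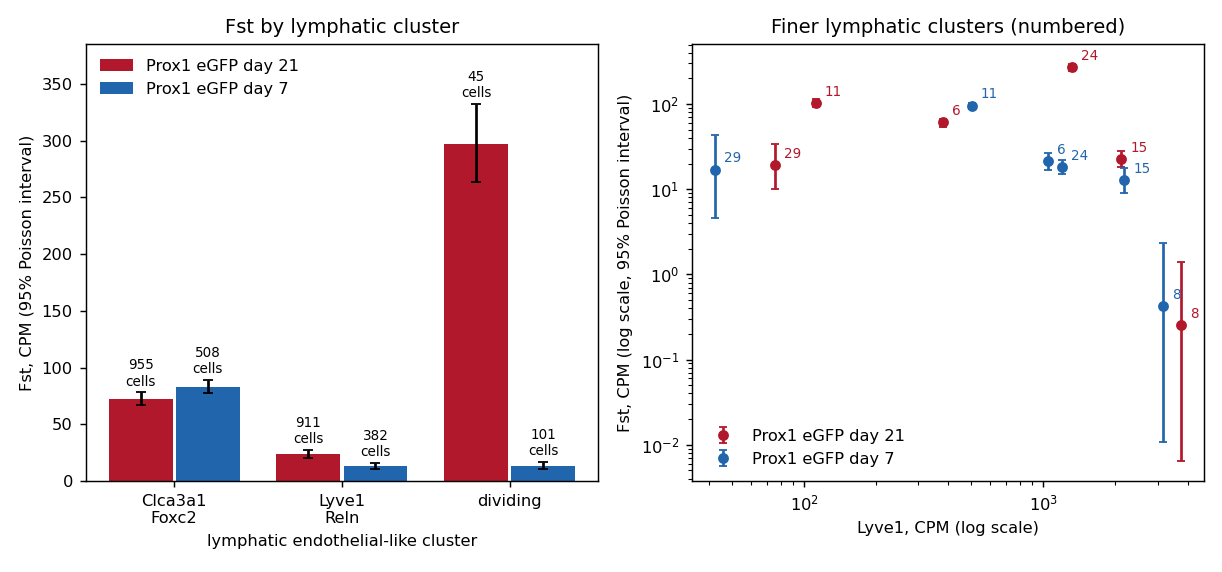
Fst level in the 3 lymphatic clusters on days 21 and 7 (left, CPM, bars with 95% counting intervals), and Fst against Lyve1 level in finer lymphatic clusters drawn at a resolution of 2.0 (right, CPM, log axes). The dividing cluster stands at 296.7 CPM on day 21 and 13.6 CPM on day 7, the finer cluster with the highest Lyve1 level has the lowest Fst level on both days, and the one with the lowest Lyve1 level stands at 19.3 CPM and 16.99 CPM.

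Finer clusters, drawn at a resolution of 2.0, put Fst in no single order with either Clca3a1 or Lyve1. In the one with the highest levels of Lyve1 (3761 CPM on day 21 and 3148 CPM on day 7) and Ccl21a (32247 CPM and 24754 CPM), Fst had 1 UMI in 481 cells on day 21 and 1 UMI in 166 cells on day 7. In the one with the highest Clca3a1 level, 881 CPM on day 21 and 711 CPM on day 7, Fst stood at 103 CPM (92.7 to 115) and 96.0 CPM (88.4 to 104). Another, with Clca3a1 at 598 CPM on day 21 and 458 CPM on day 7, held Fst at 60.7 CPM (54.4 to 67.6) and 21.2 CPM (16.6 to 26.6). The one with the highest level of Mki67, a gene of dividing cells, held Fst at 268.9 CPM (243 to 296) on day 21 and 18.3 CPM (15.2 to 21.9) on day 7, with Clca3a1 at 139 CPM and 72.9 CPM. The one with the lowest Lyve1 level (75.5 CPM on day 21 and 42.5 CPM on day 7) and the highest Foxc2 level (165 CPM and 161 CPM) held Clca3a1 at 239 CPM and 425 CPM, yet Fst at 19.3 CPM (9.96 to 33.7) and 16.99 CPM (4.63 to 43.5), from 12 and 4 UMIs. In the remaining one, with Lyve1 at 2111 CPM and 2179 CPM, Fst stood at 22.6 CPM (18.0 to 28.01) and 12.9 CPM (9.15 to 17.6).

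Over the whole class, Fst was 1.40-fold higher (1.29 to 1.53) on day 21 than on day 7, or 0.49 on the log2 scale, which is within the 2-fold limit. The difference turned with the dividing cluster: without it Fst stood at 49.9 CPM on day 21 and 54.3 CPM on day 7, a ratio of 0.92 (0.84 to 1.01). Within the Clca3a1 cluster the ratio was 0.87 (0.78 to 0.96). In the Lyve1 Reln cluster it was 1.79 (1.39 to 2.31), with 67 of the 196 day 21 UMIs in 1 cell, and it turned to -1.13 on the log2 scale under a stricter cell filter, against 0.84 as given. Without the Clca3a1 cluster the ratio over the class was 3.97 (3.32 to 4.76). With cells thinned to 2000 UMIs the log2 ratio of the class was -0.20 (-0.58 to 0.18), so no direction is given for Fst in lymphatic endothelium between the days.

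Of the 7 members with at least 10 UMIs in lymphatic endothelium, 0 were called at 2-fold between the days, where 11.7% of the 13682 genes tested were, so the count is near that over all genes. It was 1 with thinning or with classes by markers per cell. Their median log2 ratio was -0.33, beside -0.16 over all genes tested. Fstl1 was 0.77-fold (0.74 to 0.79), Acvr1b 0.72-fold (0.53 to 0.97) and Inhbb 0.79-fold (0.64 to 0.97) their day 7 levels. Acvr2a was 1.16-fold (1.00 to 1.35), Acvr2b 1.07-fold (0.81 to 1.41) and Fstl3 0.79-fold (0.52 to 1.19). Within the Clca3a1 cluster Fstl1 stood at 492 CPM on day 21 and 718 CPM on day 7, above the 251 CPM and 324 CPM of the Lyve1 Reln cluster, the same order as Fst. Inhbb had no such order: it stood at 6.60 CPM on day 21 and 11.1 CPM on day 7 in the Clca3a1 cluster and at 10.2 CPM and 9.01 CPM in the Lyve1 Reln cluster.

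In muscle progenitor-like cells 1 of 9 members, Acvr1b, passed the 2-fold limit between day 21 and day 7, and it did not with TMM scaling. Inhbb, inside the limit, was 0.55-fold (0.50 to 0.61) its day 7 level, with 558 UMIs in 3498 cells on day 21 and 1247 in 3659 cells on day 7. Acvr2a, also inside it, was 0.51-fold (0.46 to 0.56), from 554 UMIs on day 21 and 1339 on day 7. Acvr1b was 0.43-fold (0.33 to 0.57), from 73 UMIs on day 21 and 208 on day 7, and was the member called, where 15.9% of all genes were. Thinned to 2000 UMIs its log2 ratio was -0.75. With TMM scaling, which centres the ratios of most genes, its log2 ratio was -0.99 against -1.21, so the count of called members was then 0 of 9. Acvr2b stood at 0.98-fold (0.85 to 1.12) and Fstl1 at 1.01-fold (0.96 to 1.06). Fstl3 stood at 1.55-fold (1.28 to 1.88). The median log2 ratio of the 9 members was -0.16, beside -0.24 over all genes.

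The 2 large muscle progenitor clusters had very different sizes on the 2 days. The cluster led by Gal, Nppc and Calcr held 596 cells on day 21 and 2876 on day 7, and the cluster led by P2ry14 and the heat-shock genes Dnajb1 and Hspb1 held 2663 on day 21 and 524 on day 7. Inhbb stood at 22.5 CPM on day 21 and 42.5 CPM on day 7 in the Calcr cluster, and at 24.8 CPM and 36.9 CPM in the heat-shock cluster. Acvr2a likewise stood at 32.2 CPM on day 21 and 42.0 CPM on day 7 in the Calcr cluster, and at 20.1 CPM and 40.1 CPM in the heat-shock cluster. In the cluster with Myog and Mymk, genes of muscle cells about to fuse, Inhbb stood at 3.70 CPM in 113 cells on day 21 and 26.2 CPM in 200 cells on day 7. Acvr2a stood there at 11.7 CPM on day 21 and 47.6 CPM on day 7. Fstl3 stood at 9.73 CPM on day 21 and 5.24 CPM on day 7 in the Calcr cluster, at 9.72 CPM and 2.99 CPM in the heat-shock cluster, and at 4.94 CPM and 14.1 CPM in the Myog cluster. The part of the heat-shock genes in these differences was not tested.

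**Figure D4:**
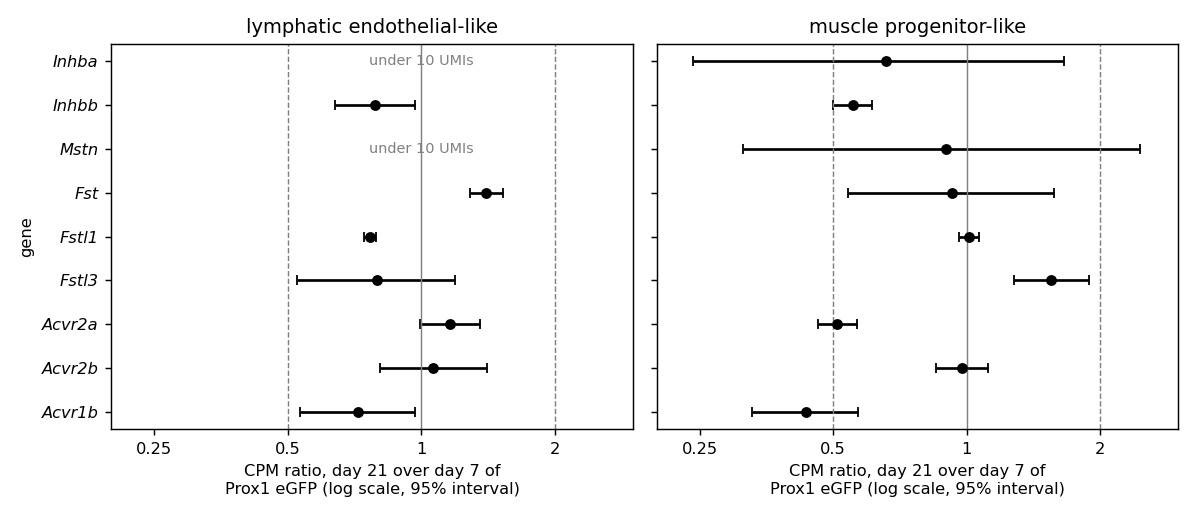
Ratio of day 21 over day 7 of Prox1 eGFP for the 9 genes in lymphatic endothelial- and muscle progenitor-like cells (log axis, points with 95% counting intervals, dashed lines at 0.5 and 2). In muscle progenitor-like cells Inhbb, Acvr2a and Acvr1b lie at 0.55, 0.51 and 0.43, and in lymphatic endothelial-like cells the 7 members with at least 10 UMIs lie between 0.72 and 1.40.

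Smaller Prox1 eGFP classes gave larger ratios from few UMIs. In mature muscle-like cells Fst had 34 UMIs in 10 of 107 cells on day 21 and 9 UMIs in 5 of 136 cells on day 7, or 37.7 CPM and 3.15 CPM, a ratio of 11.97 (5.62 to 28.4). Mstn was lower on day 21, at 2.22 CPM against 10.2 CPM, and Fstl1 as well, at 16.6 CPM against 47.3 CPM. That made 3 of 6 members called, where 21.3% of all genes were. The mature muscle markers summed to 136635 CPM on day 21 and 173810 CPM on day 7, and the lymphatic markers to 637 CPM and 639 CPM in the same cells.

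In blood endothelial-like cells 5 of 7 members were called between day 21, with 121 cells, and day 7, with 33 cells, where 19.9% of all genes were. Fst (6.34 CPM on day 21 against 25.4 CPM on day 7), Fstl1 (207 CPM against 822 CPM), Inhbb (14.3 CPM against 52.4 CPM) and Acvr1b (1.58 CPM against 23.8 CPM) were lower. Inhba was higher at 34.1 CPM against 1.59 CPM, with 43 UMIs on day 21 and 1 on day 7. Of the 8 Fst UMIs of day 21, 7 were in 1 cell. The lymphatic markers summed to 1320 CPM on day 21 and 973 CPM on day 7 in these cells, and the erythroid markers to 5331 CPM and 1279 CPM. Their part in the differences was not tested.

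Stromal cells could be set side by side in Vegfc CRE at day 7 and Prox1 eGFP at day 21. In fibroblast-like cells Inhba was 2.09-fold higher (1.64 to 2.68) in Vegfc CRE, with 946 UMIs in 322 of 1408 cells, than on day 21, with 73 UMIs in 36 of 306 cells. Acvr2b was lower, at 0.969 CPM from 34 UMIs against 2.66 CPM from 15 UMIs. These 2 of 8 members were called, where 18.4% of all genes were. Acvr2a was 0.58-fold (0.51 to 0.66), Fst 0.81-fold (0.73 to 0.89), Acvr1b 1.70-fold (1.17 to 2.54) and Fstl1 1.03-fold (1.01 to 1.04). The fibroblast markers summed to 5471 CPM in Vegfc CRE and 10411 CPM on day 21.

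The Inhba difference was not found within clusters. Fibroblast-like cells came from a cluster led by Cxcl5, Gzme, Crabp1 and Saa3, with 713 Vegfc CRE cells and 29 of day 21, and one led by Myoc, Clec3b, Pi16 and Sfrp4, with 695 and 277. The first carried 4 of 8 fibroblast markers and 5 of 6 dividing markers, the second all 8 fibroblast markers. Inhba stood at 36.4 CPM (33.9 to 39.0) in Vegfc CRE and 34.1 CPM (21.8 to 50.7) on day 21 in the Cxcl5 cluster, a ratio of 1.07 (0.71 to 1.68). In the Pi16 cluster it stood at 11.0 CPM (9.30 to 13.0) and 9.92 CPM (7.34 to 13.1), a ratio of 1.11 (0.80 to 1.57). Within Vegfc CRE the Cxcl5 cluster was 3.30-fold higher (2.76 to 3.97) in Inhba than the Pi16 cluster. Fst had the other order, with 60.8 CPM in the Cxcl5 cluster against 101 CPM in the Pi16 cluster, as did Fstl1 with 2079 CPM against 3395 CPM and Acvr2a with 27.4 CPM against 40.3 CPM. Fstl3 was higher in the Cxcl5 cluster, at 12.7 CPM against 7.97 CPM. At a resolution of 0.5, where 714 Vegfc CRE cells were fibroblast-like, the log2 ratio of Inhba over day 21 was -1.003, against 1.06 as given.

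**Figure D5:**
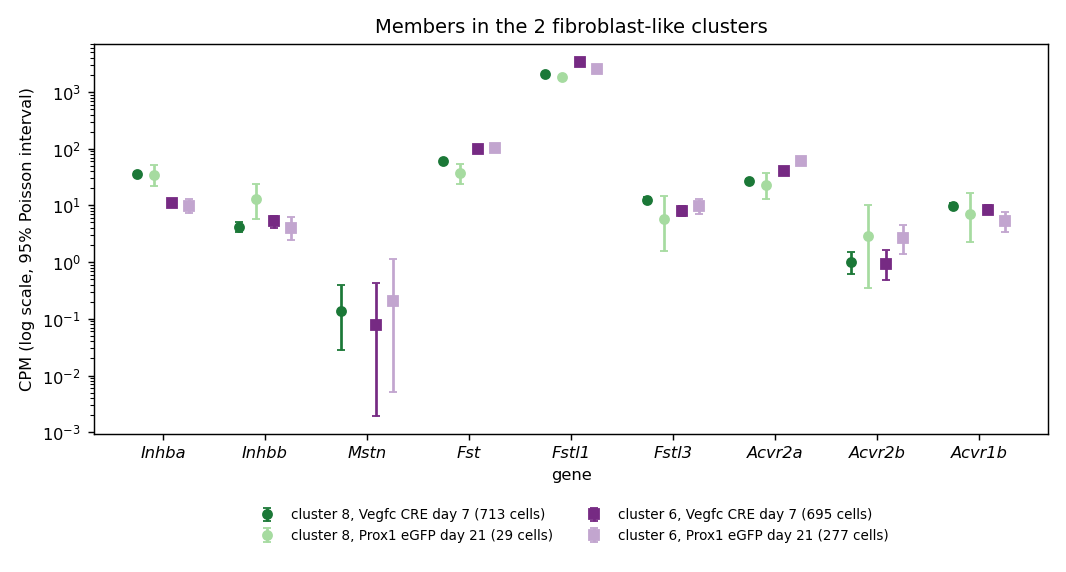
Level of each member (CPM, log axis, 95% counting intervals) in the Cxcl5 and Pi16 fibroblast-like clusters of Vegfc CRE day 7 and Prox1 eGFP day 21. Inhba separates the clusters, at 36.4 CPM and 11.0 CPM in Vegfc CRE, more than it separates the libraries within a cluster.

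In mural-like cells Fst was lower in Vegfc CRE than on day 21, at 38.02 CPM from 130 UMIs in 54 of 229 cells against 299.9 CPM from 259 UMIs in 43 of 81 cells, a ratio of 0.127 (0.102 to 0.157). Inhba was lower too, at 34.5 CPM against 86.9 CPM, a ratio of 0.397 (0.295 to 0.538). Inhbb (4.39 CPM from 15 UMIs against 1.16 CPM from 1) and Acvr1b (4.68 CPM from 16 UMIs against 2.32 CPM from 2) were higher, with overlapping intervals. So 4 of 8 members were called, where 23.3% of all genes were. Fst was spread over many cells: 53.1% of the day 21 cells had a UMI, against 23.6% in Vegfc CRE, and 35.8% against 7.14% after thinning. The mural markers summed to 8800 CPM in Vegfc CRE and 5984 CPM on day 21, and the fibroblast markers to 230 CPM and 1388 CPM in the same cells. All 8 fibroblast markers had UMIs in both groups, and their part in the Fst difference was not tested. The lymphatic markers summed to 5.85 CPM in Vegfc CRE and 168 CPM on day 21 in these cells. On day 21 Fst was 3.19-fold higher (2.74 to 3.71) in mural- than in fibroblast-like cells.

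In tenocyte-like cells 0 of 9 members were called between Vegfc CRE and day 21, where 16.7% of all genes were. Inhba stood at 33.4 CPM in Vegfc CRE and 43.3 CPM on day 21, a ratio of 0.77 (0.63 to 0.96). Fst stood at 20.2 CPM and 11.95 CPM, a ratio of 1.69 (1.16 to 2.52), and Fstl1 at 1867 CPM and 1392 CPM, a ratio of 1.34 (1.30 to 1.39). Within Vegfc CRE, tenocyte-like cells were 1.24-fold higher (1.10 to 1.39) than fibroblast-like cells in Inhba and 0.27-fold (0.23 to 0.30) in Fst.

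In blood endothelial-like cells of Vegfc CRE, 4 of 8 members were called against day 21, where 18.5% of all genes were. Inhbb (29.6 CPM against 14.3 CPM) and Acvr1b (7.84 CPM from 63 UMIs against 1.58 CPM from 2) were higher. Inhba (1.37 CPM from 11 UMIs against 34.1 CPM from 43) and Fstl3 (1.12 CPM from 9 UMIs against 3.17 CPM from 4) were lower. The Fstl3 intervals overlapped. Against day 7 of Prox1 eGFP, with 33 cells, 4 of 8 were called, all lower, where 21.9% of all genes were: Fst (3.24 CPM against 25.4 CPM), Fstl1 (326 CPM against 822 CPM), Acvr2b (4.86 CPM against 11.1 CPM) and Acvr1b (7.84 CPM against 23.8 CPM). With TMM scaling the second count was 3.

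The myeloid classes of day 21 were small and gave calls from single cells. In macrophage-like cells 2 of 5 members were called between Vegfc CRE and day 21, where 18.9% of all genes were. Fstl1 was lower at 14.8 CPM against 47.7 CPM, with 21 of the 31 day 21 UMIs in 1 cell. Acvr2a was higher at 6.26 CPM (4.80 to 8.02) against 3.08 CPM (0.373 to 11.1), with overlapping intervals. Those levels came from 62 UMIs in 1101 cells and 2 UMIs in 61 cells. In monocyte-like cells 4 of 5 were called, where 23.4% of all genes were: Inhba, Fstl1 and Acvr2b were lower in Vegfc CRE and Acvr1b was higher. All 6 Inhba UMIs of the day 21 monocyte-like cells were in 1 cell, as were 17 of the 23 Fstl1 UMIs. Several of these directions turned when cells were thinned or the highest doublet scores were removed. In the 36 muscle progenitor-like cells of Vegfc CRE, 1 of 9 members was called against day 7 of Prox1 eGFP, where 24.2% of all genes were. Inhbb was lower at 12.7 CPM against 39.3 CPM, from 3 UMIs against 1247 in 3659 cells.

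A list of 27 further genes of the pathway was called at shares near those over all genes in most comparisons. Here and below, each share over all genes was computed without TMM scaling and belongs to the count without it. In lymphatic endothelial-like cells 2 of 18 with enough UMIs were called between day 21 and day 7, or 1 with TMM scaling, where 11.7% of all genes were. Gdf15, a stress-induced ligand of the same superfamily, was higher at 211 CPM against 72.2 CPM, a ratio of 2.93 (2.76 to 3.11), and Smad7, an inhibitor of the receptors that the pathway itself induces, was lower at 11.1 CPM against 23.3 CPM. In muscle progenitor-like cells 2 of 20 were called, or 1 with TMM scaling, where 15.9% of all genes were: Inha, which encodes the inhibin chain, had 9 UMIs on day 21 against 23, and Igsf1 2 UMIs against 11, with intervals of the ratio that reached past 1. In mature muscle-like cells 2 of 14 were called, where 21.3% of all genes were, Bambi and Bmp1, each with 1 UMI on day 21. In blood endothelial-like cells 3 of 15 were called, where 19.9% of all genes were, Gdf15 higher with 25 UMIs against 0, and Ltbp3 and Tll1 lower.

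Between Vegfc CRE and day 21, 2 of 18 genes of the list were called in fibroblast-like cells, where 18.4% of all genes were, Gdf15 (1.796 CPM against 9.21 CPM) and Skil, a repressor of Smad targets (30.6 CPM against 71.9 CPM), both lower. In tenocyte-like cells 3 of 17 were called, where 16.7% of all genes were, with Gdf11, a close relative of Mstn, higher at 11.4 CPM against 5.60 CPM, and Gdf15 and Skil lower. In mural-like cells 6 of 15 were called, or 3 with TMM scaling, where 23.3% of all genes were: Bmp1, a protease that frees myostatin from its propeptide, was higher at 155 CPM against 64.9 CPM, and Bambi, Gdf15, Pmepa1, Skil and Smad7 were lower. In blood endothelial-like cells 4 of 16 were called, where 18.5% of all genes were, with Bmp1, Gdf11 and Tll1 higher and Gdf15 lower. In macrophage-like cells 3 of 14 were called, or 2 with TMM scaling, where 18.9% of all genes were, all lower: Gdf15 (130 CPM against 476 CPM), Ltbp3 and Tgfbr3. In monocyte-like cells 7 of 15 were called, or 5 with TMM scaling, where 23.4% of all genes were, with Bambi higher and Bmp1, Furin, Gdf15, Ltbp3, Pmepa1 and Tgfbr3 lower.

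Against day 7 of Prox1 eGFP, 4 of 16 genes of the list were called in the blood endothelial-like cells of Vegfc CRE, or 3 with TMM scaling, where 21.9% of all genes were, with Bmp1 higher and Ltbp3, Skil and Smad7 lower. In the 36 muscle progenitor-like cells 6 of 20 were called, where 24.2% of all genes were, with Bmp1 higher and Acvr1, Bambi, Pmepa1, Skil and Tgfbr1 lower.

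Other receptor genes of the superfamily were read in lymphatic endothelial-like cells as well. Acvr1, a type I receptor gene, stood at 23.9 CPM on day 21 and 24.1 CPM on day 7, Tgfbr1 at 16.7 CPM and 15.4 CPM, Tgfbr3 at 76.1 CPM and 71.7 CPM, and Bambi, a decoy receptor gene, at 84.3 CPM and 67.2 CPM. Muscle progenitor-like cells held Tgfbr3 at 203 CPM on day 21 and 216 CPM on day 7.

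The genes whose levels were most like those of Fst over the 29 class-by-library groups of at least 30 cells were Ctxn1, Morc4, Serpine2, Sbspon, Dynlrb1, B4galt2, Sgcd and Prss23, with Pearson correlations of log2(CPM + 1) from 0.85 down to 0.80. Of these, Prss23 was highest in lymphatic endothelial-like cells of day 21, at 748 CPM, and Ctxn1 and Serpine2 were highest in mural-like cells of day 21, at 49.8 CPM and 1551 CPM. For Inhba they were Shox2, Srpx, Anxa1, F3, Fzd2, Mfap5, Pdgfrb and Adamts2, from 0.84 down to 0.79. Shox2 was highest in mural-like cells of day 21, at 171 CPM. The groups share libraries and depths, and the correlations are a description over groups among 10924 genes.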

How the data were processed

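Raw UMI counts per gene and barcode were deposited by the authors, made from Single Cell 3' v3 libraries per the labels' protocols, with Cell Ranger 5.0.1 and mm10 per the submitters' processing notes. The counting of strand is not stated, and Inhba, Fst, Fstl3, Acvr2a and Acvr2b overlap annotated antisense genes, so reads of those cannot be told apart. The Prox1 eGFP day 7 file lists 27998 genes and the others 32285. The 27040 identifiers in both lists were kept, with positions from GENCODE M21. Columns of other series numbered 0.

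A barcode was kept with 500 genes, 1000 UMIs and a mitochondrial share under 15%. This removed 1654 of Vegfc CRE and 27, 179 and 320 of Prox1 eGFP days 0, 7 and 21. Scrublet in scanpy 1.11.5 (Python 3.11.15) called 91 doublets in Vegfc CRE and 0, 1 and 88 in Prox1 eGFP, which were removed. At 0.0205% the caller had not worked on day 7, so removing the highest scores at 0.8% per 1000 cells was an alternative. Counts scaled to 10000, 2000 variable genes, 30 principal components and 15 neighbours gave 27 Leiden clusters at resolution 1.0 (leidenalg 0.10.2), of which 2 stayed unnamed. A name needed 3 markers at 2-fold or more in 20% of cells. Unnamed clusters held 7.02% of Vegfc CRE cells and 0.870%, 0.0821% and 0.111% of Prox1 eGFP cells.

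No test between groups was possible with 1 library each. UMIs were summed by class, with exact Poisson intervals for CPM, conditional binomial intervals for ratios and Clopper-Pearson intervals for shares, all at 95% (scipy 1.17.1), and 3 counts as the limit of a 0. The summing and calling steps were tested on simulated data. Named were all 9 members, the ligands, receptors and called genes of the list of 27, and the 8 genes most like Fst and Inhba with a mean of at least 5 CPM. The members, lists and markers were chosen with earlier results of these data known.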

Additional observations from a re-analysis of the deposited data

Results flagged for a closer look

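Fst went opposite ways between day 21 and day 7 of Prox1 eGFP in 2 small classes. The log2 ratio was -2.00 in blood endothelial-like cells, from 8 UMIs in 121 cells on day 21 and 16 UMIs in 33 cells on day 7, and 3.58 in mature muscle-like cells, from 34 UMIs in 107 cells and 9 UMIs in 136 cells. The difference between these ratios was not tested.

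The barcodes of Vegfc CRE that failed the cell filter carried Fstl1 at 543 CPM (519 to 568), from 1957 UMIs in 1654 barcodes, whereas the cells that were kept held 1365 CPM.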

How the results depend on the processing

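Which cells form a class, and their depth, moved several results, and the cause was not tested. The log2 ratio of Fst in lymphatic endothelial-like cells, day 21 over day 7, was 0.49. It was 0.31 with the highest doublet scores removed, 0.63 with TMM scaling, -0.20 with thinning to 2000 UMIs, -0.12 without dividing clusters and 1.99 without the Clca3a1 cluster (chosen after seeing the data). The count of members at 2-fold in these cells was 0, and 1 with classes by markers per cell or with thinning. In muscle progenitor-like cells it was 1, 2 with doublets kept, with thinning or without dividing clusters, and 0 with TMM scaling. In fibroblast-like cells it was 2, 1 with a stricter cell filter, doublets kept, a resolution of 2.0, classes by markers per cell or no dividing clusters, and 0 with the highest scores removed or thinning. The log2 ratio of Fst in lymphatic endothelial- over muscle progenitor-like cells was 5.91, and 5.15 with thinning. That of Inhba in fibroblast- over macrophage-like cells of Vegfc CRE was 4.89, and 2.48 with the stricter filter, 2.57 with doublets kept, 0.37 at a resolution of 0.5, 1.18 at 2.0, 2.58 with classes by markers per cell and 3.60 without dividing clusters.

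Values recomputed for 96 other results numbered 874. Of these, 774 stayed within the counting interval of the reported ratio or, for counts of members, near the reported count. Another 94 moved further. The remaining 6 were ratios called at 2-fold that changed sign. Sign changes of ratios not called, such as Fst in the Lyve1 Reln cluster, were not counted among the 6. Inhba in fibroblast-like cells, Vegfc CRE over day 21, was -1.003 at a resolution of 0.5. Fstl1 in macrophage-like cells was 0.77 with the highest scores removed and 0.54 with thinning, and in monocyte-like cells 1.96 and 0.88. Acvr2a in macrophage-like cells was -0.46 with thinning. No paired analysis was possible because each group has 1 library.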

Other observations

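Among the day 0 cells, 26 fell in the mural-like cluster, which held 337 cells over all libraries and was named from all of them. These 26 held 14 of the 32 Fst UMIs of the day 0 library, 7 of them in 1 cell. Their level was 50.9 CPM (27.8 to 85.4). The same cells held the lymphoid chemokine genes Ccl19 at 5245 CPM and Cxcl13 at 1465 CPM, and fibroblast markers summing to 2101 CPM beside 1170 CPM for the mural markers, so their name is uncertain. With fewer than 30 cells they enter no comparison.

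Several genes of the wider family were almost silent. Inhbc had 0 UMIs in every class, Inhbe at most 2 and Fstl5 at most 1. Wfikkn2, which encodes a secreted binder of myostatin, had 27 UMIs in fibroblast-like cells of Vegfc CRE, and Tdgf1, a co-receptor gene, had 10 UMIs in monocyte-like cells of that library. Acvr1c, a further type I receptor gene, had at most 12 UMIs in any class of a library.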
